A study of Mus musculus with 16 samples.

Results

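The 10 genes described here encode proteins that bind, bundle or take apart microtubules in neurons and glia: Map1a, Map1b, Map2, Map4, Map6, Mapt, Tppp, Tppp3, Stmn2 and Dcx. They were chosen by gene name in the deposited count tables, where each name occurred once, and make up 10 of the 54532 genes listed. RNA came from primary hippocampal cultures of newborn mouse pups, neurons and glia grown together from pooled hippocampi, and was sequenced as 16 bulk libraries in 4 groups of 4. KOVeh cultures were Shank3∆11(−/−), a deletion that removes only some SHANK3 isoforms from every cell, and received water as vehicle. KOLi cultures had the same genotype and received Li at 0.1 mmol/l from day 9 in vitro for 5 days. WTVeh and WTLi were wild type cultures given vehicle or the same Li. Sequencing batch 1 held replicates 1 to 3 and batch 2 held replicate 4. The experiment was repeated 4 times, and each replicate number was treated as 1 of these repeats. Labels do not say whether the libraries of a number came from separate dissections, so p-values measure the spread between these libraries. The design gives 14 days in culture, whereas the labels run over 14 to 29 days in vitro with a different day for each library, counting upward in the order of listing. By those labels each KO library was 2 days older than its WT partner, and age and genotype could then not be told apart. Each Li library was likewise labelled older than its Veh partner, so the same holds for age and Li.

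Microtubules give neurons their shape and are the tracks for transport along axons and dendrites. Structural microtubule-associated proteins (MAPs) coat and stabilize the polymer: MAP2 marks dendrites and cell bodies, tau (Mapt) is enriched in axons, MAP1B is prominent in growing axons and MAP1A in mature neurons, and MAP6 protects microtubules against cold. MAP4 is the broadly expressed member of the family and is abundant outside neurons. TPPP bundles microtubules and is best known from oligodendrocytes, TPPP3 is its paralog, stathmin-2 (Stmn2) binds free tubulin and favours disassembly in growth cones, and doublecortin (Dcx) stabilizes microtubules in migrating young neurons. Lithium inhibits GSK3, a kinase that phosphorylates tau and MAP1B.

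The libraries held 16123067 to 35188300 counts assigned to genes, and every member had at least 191 counts in every library. Shank3 was at 82 to 162 CPM (counts scaled to the library total, with TMM factors) in KOVeh and 85.3 to 159 CPM in KOLi libraries, against 169 to 267 CPM in WTVeh and 188 to 261 CPM in WTLi libraries. The top of both KO ranges came from the libraries labelled KO replicate 2, and without them the highest KO value was 97.9 CPM. Values without replicate 2 are therefore given for the members between KOVeh and WTVeh, and for the calls under Li. Markers of neurons and astrocytes were abundant: Snap25 of synapses averaged 846 CPM and Gfap of astrocytes 3020 CPM, while the microglial C1qb ranged over 0.277 to 47.8 CPM between libraries. In bulk RNA, fewer cells of a type and less RNA per cell cannot be told apart.

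Upstream sequence from RefSeq (build GRCm38.p6) is shown for Tppp and Map2, the members called between genotypes, and for Dcx, which had the widest range of levels among the members with a window, so that their promoters can be compared. The table held windows for 6 of the 10 members, not for Map6, Mapt, Tppp3 and Stmn2. Each run is the 250 bases before the RefSeq start, at chr13:74009169-74009418 on the plus strand for Tppp, chr1:66175079-66175328 on the plus strand for Map2 and chrX:143933220-143933469 on the minus strand for Dcx. Capitals mark GGGCGG or TATAAA on either strand.
Tppp: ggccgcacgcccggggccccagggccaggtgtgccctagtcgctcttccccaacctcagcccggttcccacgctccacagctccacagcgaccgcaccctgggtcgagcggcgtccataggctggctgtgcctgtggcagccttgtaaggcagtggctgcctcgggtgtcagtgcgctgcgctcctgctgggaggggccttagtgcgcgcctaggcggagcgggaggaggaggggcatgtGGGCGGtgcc
Map2: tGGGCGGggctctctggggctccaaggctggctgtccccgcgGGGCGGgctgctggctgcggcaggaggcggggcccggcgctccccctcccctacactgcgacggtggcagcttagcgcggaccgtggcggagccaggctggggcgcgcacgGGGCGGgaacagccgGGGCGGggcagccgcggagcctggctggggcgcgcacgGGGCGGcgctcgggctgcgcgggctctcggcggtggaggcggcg
Dcx: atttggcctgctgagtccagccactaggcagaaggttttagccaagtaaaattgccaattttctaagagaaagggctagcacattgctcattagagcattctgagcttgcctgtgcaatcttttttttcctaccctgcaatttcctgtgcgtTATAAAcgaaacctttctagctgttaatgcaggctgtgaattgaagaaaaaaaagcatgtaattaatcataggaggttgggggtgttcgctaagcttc
The Map2 run held 5 matches to GGGCGG and the Tppp run 1, and neither held TATAAA or CCAAT. The Dcx run held 1 TATAAA and 1 CCAAT and no GGGCGG. Over all 32851 windows of this length, 32.7% held GGGCGG, 12.4% TATAAA and 33.8% CCAAT, both strands searched. Bases G and C made up 81.2% of the Map2 run, 71.6% of the Tppp run and 41.6% of the Dcx run, against a median of 52.4% over all windows. TGACGTCA, in 1.55% of windows, was in none of the 8 member windows. These matches describe the letters in these windows and were not tested for binding.

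Per kilobase of gene length the members spanned a wide range of levels. Stmn2 was the highest, with a median of 167 CPM per kb over the 16 libraries, followed by Mapt at 93.3, Map1b at 70.1, Map2 at 59.6, Tppp at 51.8, Map1a at 42.3 and Map4 at 42.2 CPM per kb. Tppp3 at 19.4, Map6 at 13.3 and Dcx at 10.8 CPM per kb were the lowest. Neighbours in this order overlapped in their ranges, with the exception of Map4, whose lowest library (39.1 CPM per kb) was above the highest of Tppp3 (30.7 CPM per kb). Map4 varied least, its highest library being 1.27 times its lowest. The ratio of the highest to the lowest library was 6.09 for Tppp3, 2.68 for Dcx, 2.61 for Tppp and 2.09 for Map1b.

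**Figure D1:**
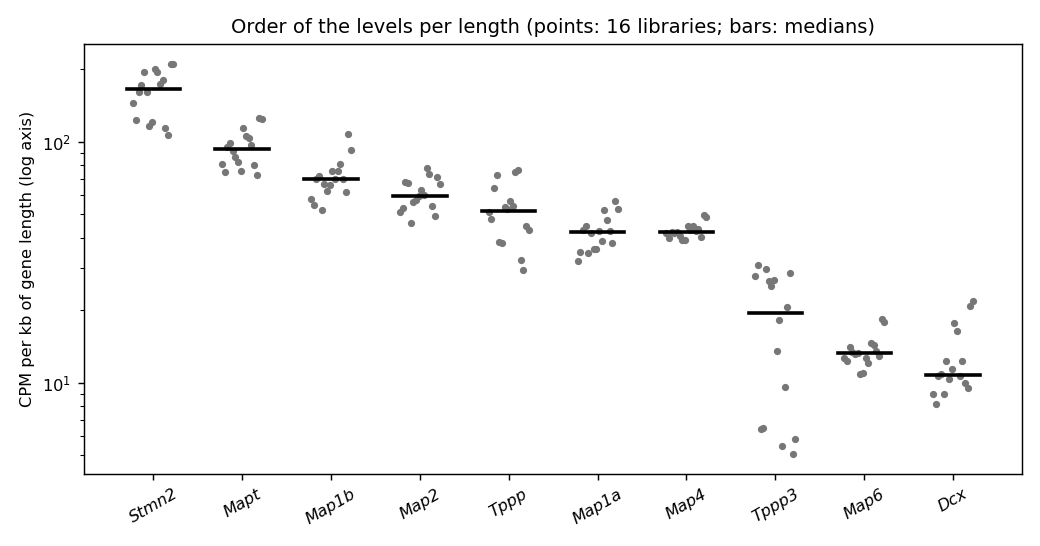
Level of each gene per kilobase of gene length (CPM per kb, log axis), with 1 point per library and a bar at the median of the 16 libraries. Stmn2 is highest with a median of 167 CPM per kb, Dcx is lowest at 10.8, and the points of Tppp3 spread from 5.04 to 30.7.

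The first question was whether KO cultures differed from WT cultures under vehicle. Tppp and Map2 were called higher in KOVeh, by 1.33-fold and 1.28-fold, and the other members were not called. A gene was called when edgeR's quasi-likelihood test, fitted over all 16 libraries with group and replicate number, gave a Benjamini-Hochberg adjusted p below 0.01 over the 14783 genes tested and a fold above 1.2. This made 2 of 10 members called in either direction, both higher, where 5.37% of all tested genes were called and 2.04% were called higher. Under that rule 302 genes were higher and 492 lower, or 206 and 585 without TMM factors. The fit behind these calls had no term for culture, and so treated the Veh and Li libraries of a genotype and number as independent. In limma-voom the correlation within cultures was estimated at 0.507. The members were chosen with earlier results of these data known, so the share among them is a description.

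Tppp (ENSMUSG00000021573, chr13:74009407-74035753, plus strand) had 328, 273, 382 and 227 CPM in KOVeh replicates 1 to 4, against 261, 197, 291 and 164 CPM in WTVeh replicates 1 to 4. Each KOVeh library was above the WTVeh library of its own number, but the groups overlapped because replicate numbers 2 and 4 were low in both genotypes. The means were 303 ± 67 CPM in KOVeh and 228 ± 58.2 CPM in WTVeh (SD, n = 4 each). The log2 fold change was 0.42 (SE 0.0493), with an edgeR adjusted p of 0.00112. Differences within replicate numbers were 0.329, 0.474, 0.39 and 0.469 on the log2 scale, a spread (SD 0.0695) well below their mean of 0.416. Tppp stayed called when any 1 of the 8 libraries was left out (edgeR adjusted p 0.00145 to 0.00792) and without replicate 2 (0.00186). Without replicate 1, 3 or 4 the log2 fold change of Tppp was 0.46, 0.44 and 0.42 (adjusted p 0.0156, 0.0235 and 0.0126). It was not called there, in fits that called 0, 0 and 19 genes of the whole table. With no replicate block Tppp was at 0.41 (adjusted p 0.398), in a fit that called 0 of all genes.

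**Figure D2:**
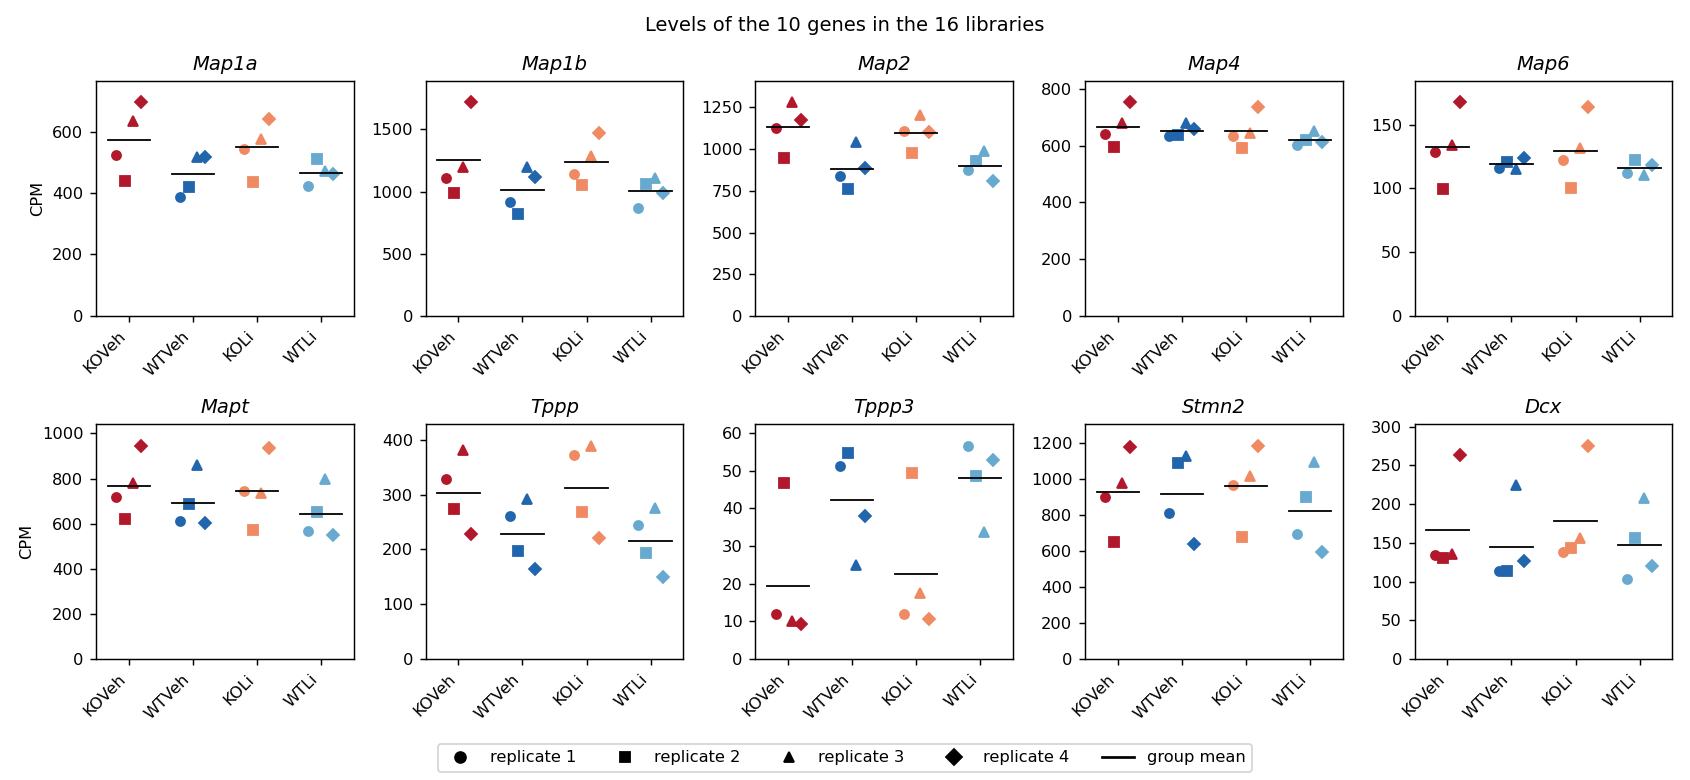
CPM of each of the 10 genes by group, with replicates 1 to 4 as separate symbols and a line at the mean of each group. Tppp is at 227 to 382 CPM in KOVeh and 164 to 291 CPM in WTVeh, with the same order of replicate numbers in both, while Tppp3 is near 10 CPM in 3 KOVeh libraries and at 46.7 CPM in replicate 2.

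Map2 (ENSMUSG00000015222, chr1:66175273-66442583, plus strand) had 1124, 946, 1280 and 1176 CPM in KOVeh replicates 1 to 4, against 841, 760, 1043 and 888 CPM in WTVeh replicates 1 to 4. KOVeh was higher in 4 of 4 pairs, and only the low KOVeh replicate 2 and the high WTVeh replicate 3 brought the groups to overlap. All 4 pairs of this comparison went in a single direction for 31.4% of all tested genes, as they did for Map2 and Tppp. The log2 fold change of Map2 was 0.36 (SE 0.0732, edgeR adjusted p = 0.00735). This call was near its threshold. It held without the library labelled KOVeh replicate 2 (adjusted p 0.00742) and was lost without any 1 of the other 7 libraries (up to 0.0329), with the fold change between 0.337 and 0.423. Without replicate 2 it was 0.00244. Without replicates 1, 3 or 4 it was 0.0801, 0.0438 and 0.0306, and with no replicate block it was 0.311, in the same fits with few or no calls over all genes. With culture as a random effect in limma-voom, which called 513 genes, Map2 was not called (0.36, adjusted p 0.0146).

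The paralog of Tppp went the other way and with the widest spread. Tppp3 (ENSMUSG00000014846, chr8:105467493-105471526, minus strand) had 11.9, 46.7, 10.1 and 9.31 CPM in KOVeh replicates 1 to 4, against 51.4, 54.7, 25.1 and 38.1 CPM in WTVeh replicates 1 to 4. All KOVeh libraries were below their WTVeh partners, 3 of them by a wide margin and replicate 2 by 0.228 on the log2 scale. The log2 fold change was -1.38 (SE 0.377), with an edgeR adjusted p of 0.0255, which missed the threshold. Without replicate 2 the log2 fold change was -1.84 and Tppp3 was called (adjusted p 0.00292). Leaving out replicate 1, 3 or 4 gave log2 fold changes from -1.41 to -1.11, not called. DESeq2 called Tppp3 lower with all libraries (-1.39, adjusted p 0.00467).

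Map1a and Map1b, the large MAPs of mature and growing neurites, were higher on average in KOVeh without being called. Map1a had 522, 437, 636 and 695 CPM in KOVeh replicates 1 to 4, against 388, 421, 517 and 519 CPM in WTVeh replicates 1 to 4, a log2 fold change of 0.30 (SE 0.109, edgeR adjusted p = 0.0679). Without replicate 2 it was 0.39 and called (0.00528). The gene Ppip5k1 lies on the opposite strand and overlaps Map1a, with counts equal to 10.6% of those of Map1a, and whether counting used strand was not stated in the sources at hand. Map1b had 1113, 989, 1198 and 1717 CPM in KOVeh replicates 1 to 4, against 919, 823, 1199 and 1115 CPM in WTVeh replicates 1 to 4. The difference was largest in replicate 4 and near 0 in replicate 3, and the log2 fold change of 0.30 (SE 0.115) had an adjusted p of 0.0877. The mean difference of Map1b within replicate numbers was 0.291, and 0.3 without replicate 2.

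For the broadly expressed Map4 the groups were nearly superimposed, at 595 to 752 CPM in KOVeh and 635 to 679 CPM in WTVeh, with a log2 fold change of 0.03 (SE 0.0615, edgeR adjusted p = 0.808). Map6 was at 99.6 to 168 CPM in KOVeh and 116 to 124 CPM in WTVeh, and Mapt at 622 to 946 CPM in KOVeh and 602 to 861 CPM in WTVeh. In KOVeh, replicate 2 was the lowest and replicate 4 the highest library for both, and the coefficient of variation of Map6 was 21% in KOVeh and 3.41% in WTVeh. Their log2 fold changes were 0.13 (SE 0.113) and 0.15 (SE 0.151). Mean differences within replicate numbers were 0.0247 for Map4, 0.129 for Map6 and 0.149 for Mapt. Without replicate 2 they were 0.0669, 0.265 and 0.248. When 1 replicate number was left out at a time, Map6 was at 0.0535 to 0.274 (edgeR adjusted p 0.0194 to 0.804) and not called. Under Li the mean difference of Map6 was 0.139, and 0.28 without replicate 2.

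Stmn2 and Dcx, the genes of growth cones and young neurons, differed between genotypes in opposite directions depending on the replicate number. For Stmn2 the log2 differences of KOVeh minus WTVeh were 0.156, -0.738, -0.205 and 0.883 in replicates 1 to 4. For Dcx they were 0.239, 0.199, -0.732 and 1.06. Dcx was at 131 to 135 CPM in KOVeh replicates 1 to 3 and 264 CPM in replicate 4, against 114 to 126 CPM in WTVeh replicates 1, 2 and 4 and 224 CPM in replicate 3. Their fitted log2 fold changes of 0.02 (SE 0.234) and 0.20 (SE 0.262) were within their errors. Without replicate 2 the mean differences were 0.278 for Stmn2 and 0.19 for Dcx, against 0.0242 and 0.192 with it.

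Under Li the comparison of genotypes, made on separate libraries of the same numbered experiments, gave 1 of 10 members called, where 6.26% of all tested genes were called and 2.75% were called higher. Tppp had 372, 268, 389 and 220 CPM in KOLi replicates 1 to 4, against 245, 194, 276 and 149 CPM in WTLi replicates 1 to 4. KOLi was higher in 4 of 4 pairs, by 0.464 to 0.604 on the log2 scale. All 4 pairs of this comparison went in a single direction for 39.3% of all tested genes. The fitted log2 fold change of Tppp was 0.53 (SE 0.0494), a 1.45-fold difference with an edgeR adjusted p of 0.000545, the gene's p ranking 2 among all tested genes. Tppp remained called without any 1 of the 8 libraries (adjusted p 0.00152 to 0.00439). Without replicate 1, without replicate 3 or with no replicate block its log2 fold change was 0.52, 0.55 and 0.53 (adjusted p 0.0112, 0.0215 and 0.258), in fits that called 0 of all genes.

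Map2 had 1107, 976, 1207 and 1105 CPM in KOLi replicates 1 to 4, against 875, 930, 986 and 808 CPM in WTLi replicates 1 to 4. It was higher in KOLi in 4 of 4 pairs, with a log2 fold change of 0.28 (SE 0.0732), and was not called at an edgeR adjusted p of 0.0187. Tppp3 had 12, 49.5, 17.7 and 10.8 CPM in KOLi replicates 1 to 4, against 56.7, 48.7, 33.6 and 52.8 CPM in WTLi replicates 1 to 4. KOLi was again low in all replicates but the second, where the libraries were level, and the log2 fold change was -1.36 (SE 0.377, adjusted p = 0.026). Without the library WTLi replicate 2, both Map2 (0.39, adjusted p 0.00389) and Tppp3 (-1.68, adjusted p 0.00891) were called. Without replicate 2, Map1a, Map2, Tppp and Tppp3 were called in both comparisons of genotypes, which made 4 of 10 members in each, where that fit called 10.8% of all genes under vehicle and 11.5% under Li. The groups of no member were free of overlap, whereas 5.31% of all tested genes separated KOVeh from WTVeh completely and 5.82% separated KOLi from WTLi.

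**Figure D3:**
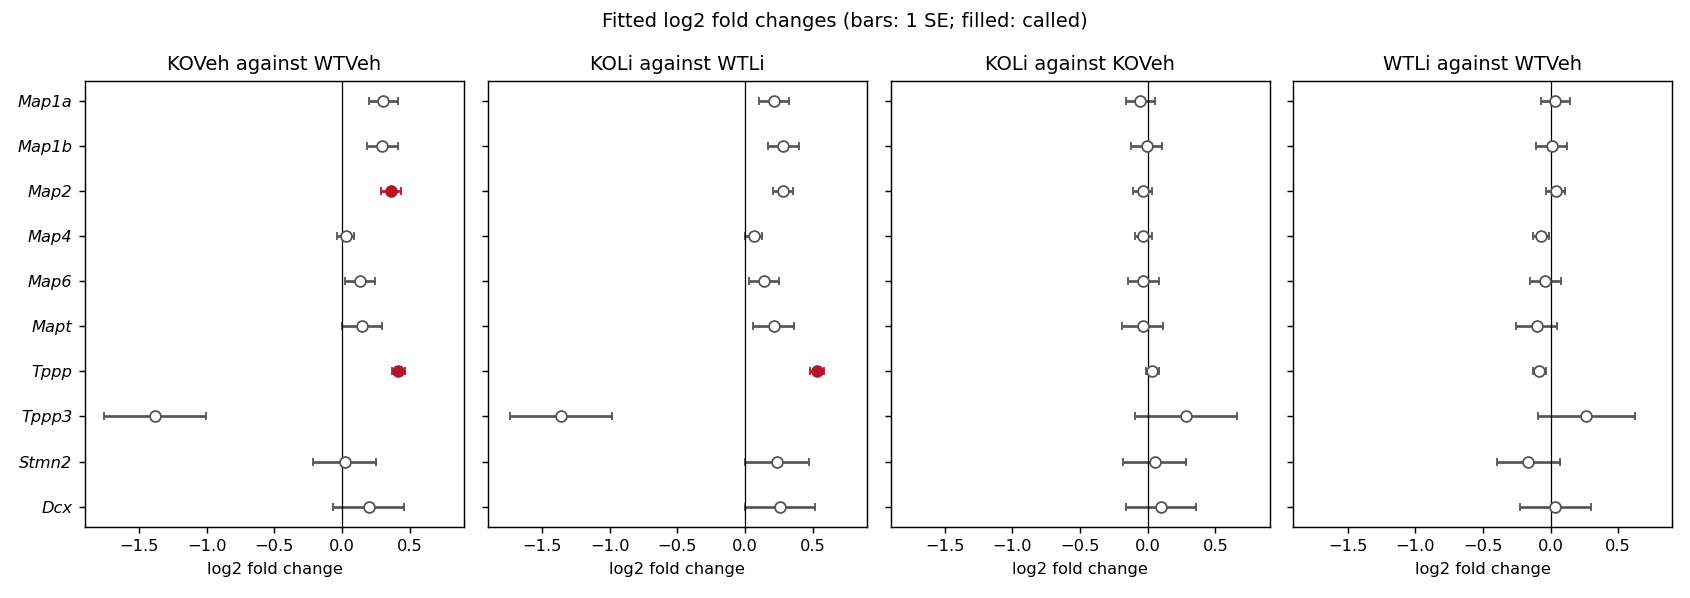
Fitted log2 fold change of each gene in the 4 comparisons, with bars of 1 SE and filled symbols where the gene was called. Tppp (0.42 and 0.53) and Map2 under vehicle (0.36) are the filled symbols, Tppp3 lies near -1.4 in both comparisons of genotypes, and the Li comparisons lie near 0.

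With 4 against 4 libraries, the smallest p of an exact permutation test (two-sided, on log2 CPM) is 0.029. Without regard to the replicate number, the lowest exact p of the 40 tests (10 members, 4 comparisons) was 0.0571, for Map2 in both comparisons of genotypes (adjusted 0.571). With labels exchanged only within the 4 pairs of a replicate number, the smallest exact p is 0.125, so this form cannot pass a threshold of 0.05.

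The differences between genotypes stood beside differences in the markers of several cell types. The summed level of 12 neuronal markers was 4910 to 6870 CPM in KOVeh, against 4190 to 5620 CPM in WTVeh, and 4410 to 6390 CPM in KOLi, against 3740 to 5210 CPM in WTLi. Of the 12, 1 was called higher under vehicle and 4 under Li, none lower. The sum was higher in KO in 4 of 4 pairs of both comparisons, by 0.269 ± 0.161 under vehicle and 0.331 ± 0.136 under Li (log2, SD, n = 4 pairs). Against this sum, a measure chosen after seeing the data, Tppp remained higher in KO in 4 of 4 pairs of each comparison, by 0.147 ± 0.189 under vehicle and 0.2 ± 0.101 under Li. Under vehicle most of this came from replicate 2 (0.425), with 0.0256, 0.102 and 0.0345 in replicates 1, 3 and 4. Map2 differed by 0.0896 ± 0.133 and -0.0424 ± 0.0545, and Map1a by 0.032 ± 0.0622 and -0.109 ± 0.206, values within their spread. Map4, nearly level between genotypes before this scaling, was lower in KO relative to the neuronal sum in 4 of 4 pairs. It differed by -0.244 ± 0.0658 under vehicle and -0.266 ± 0.0274 under Li. Map6 (-0.14 ± 0.14 and -0.191 ± 0.205) and Tppp3 (-1.68 ± 1.02 and -1.69 ± 1.24) were also lower in 4 of 4 pairs of each comparison. The summed level of 10 astrocyte markers was 4400 to 8520 CPM in KOVeh, against 5250 to 8280 CPM in WTVeh, lower in KO in 3 of 4 pairs under vehicle and 4 of 4 under Li. Of these 10, 6 had an unadjusted edgeR p below 0.05 in each comparison, 1 of them higher in KO. This was Slc1a2, at 0.54 (SE 0.118, not called) under vehicle and 0.53 (SE 0.118) under Li, where it was the only astrocyte marker called. The summed level of 7 meningeal fibroblast markers was 1020 to 1100 CPM in KOVeh, against 1290 to 1450 CPM in WTVeh. Under Li the groups overlapped, at 912 to 1300 CPM in KOLi and 1190 to 1480 CPM in WTLi, and KOLi was higher in replicate 1. In each comparison Col1a1 and Col1a2 were called lower and no fibroblast marker higher. At an unadjusted edgeR p below 0.05 there were 4 of these markers under vehicle and 3 under Li, 1 of them higher in KO each time. The part of cell content in the calls of Tppp and Map2 was not tested.

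**Figure D4:**
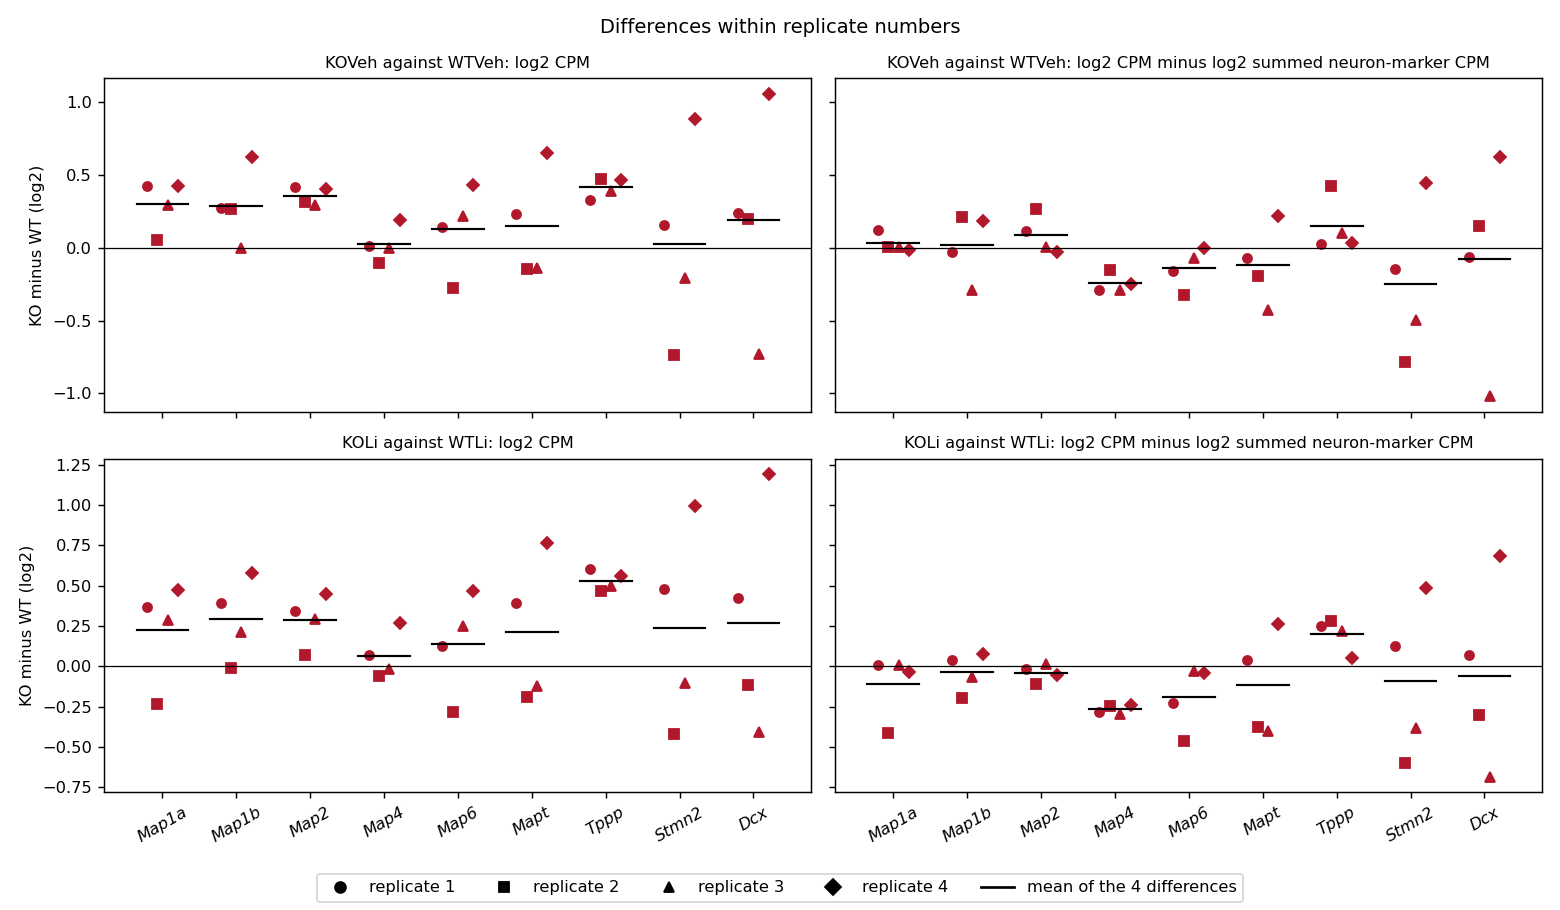
KO minus WT differences within replicate numbers for 9 of the genes (Tppp3 is left out for scale), as log2 CPM on the left and relative to the summed neuronal markers on the right, with a line at the mean of the 4 differences. Tppp stays above 0 in all 4 replicates in each panel, and Stmn2 and Dcx spread widely on both sides of 0. In the right panels Map2 lies at -0.0297 to 0.266 under vehicle and at -0.113 to 0.0129 under Li.

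Tppp is known from oligodendrocytes, and the markers of these cells differed in the other direction. The summed level of 9 oligodendrocyte markers was 112 to 199 CPM in KOVeh, against 162 to 556 CPM in WTVeh, and 121 to 197 CPM in KOLi, against 181 to 501 CPM in WTLi. It was lower in KO in 4 of 4 pairs of both comparisons, and Opalin of mature oligodendrocytes had at most 8 counts in any library. Of the 9 single markers, 0 were called under vehicle and 1 under Li, beside 5.37% and 6.26% of all tested genes. At an unadjusted edgeR p below 0.05 there were 6 and 5, all lower in KO, a level that 34.1% and 36.4% of all genes reached. Tppp3 moved with the ependymal markers, and also with other lists. With replicate effects removed and group differences kept, its Pearson correlation with the ependymal sum (log2) was 0.987. It was 0.837 with the sum of dividing cells, 0.816 with astrocytes, 0.795 with endothelial cells, 0.776 with microglia and -0.905 with neurons. Over the 8 cultures its rank correlation was 0.905 with the astrocyte sum and 0.81 with both the ependymal and microglial sums. The sum of 8 ependymal markers, led by the ciliogenesis factor Foxj1, was 64.8, 302, 62.5 and 57.6 CPM in KOVeh replicates 1 to 4, against 280, 275, 131 and 294 CPM in WTVeh replicates 1 to 4. The library labelled KOVeh replicate 2 thus had WT-like values of both Tppp3 and the ependymal sum, and WTVeh replicate 3 was the lowest WTVeh library for both. None of the 8 ependymal markers was called, with a median log2 fold change of -1.25 under vehicle and -1.33 under Li. In each comparison 7 of the 8 had an unadjusted edgeR p below 0.05, all lower in KO. The share of any of these cell types in the values of Tppp3 and Tppp was not tested.

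**Figure D5:**
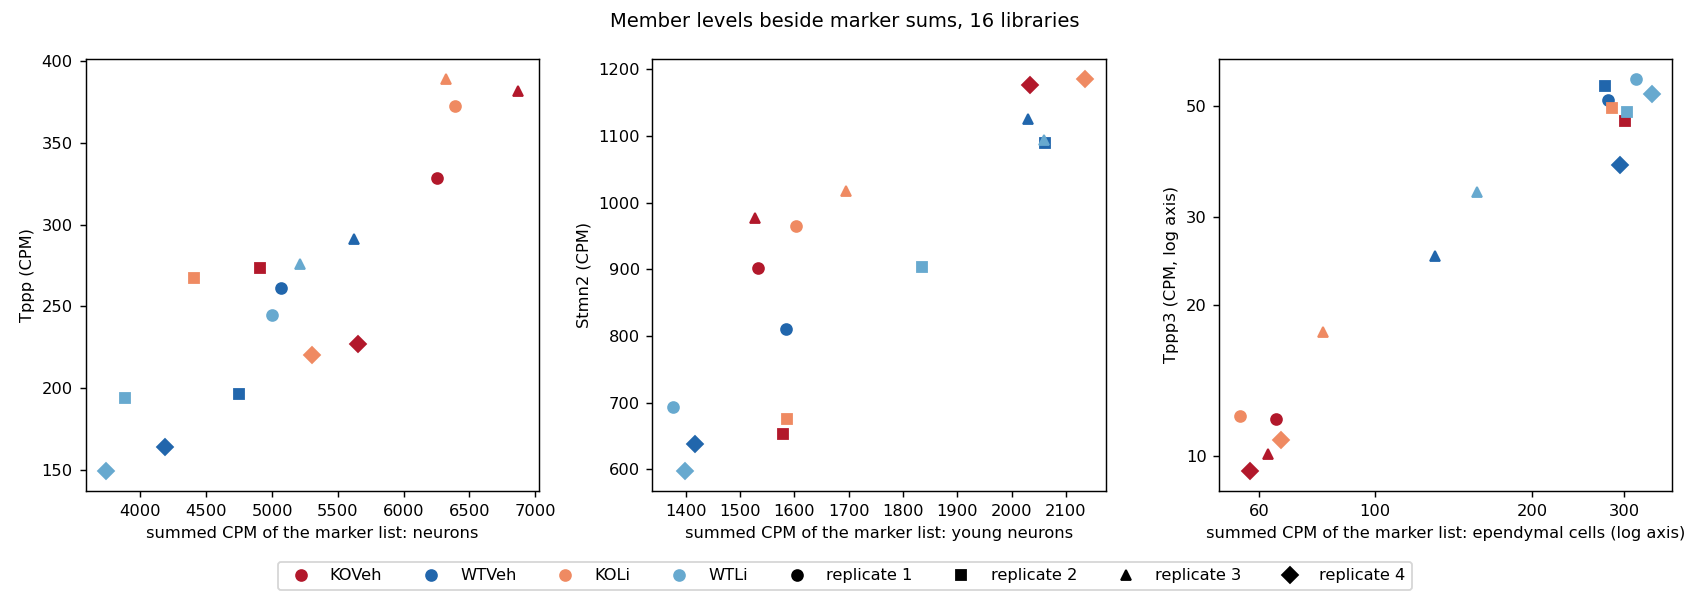
CPM of Tppp, Stmn2 and Tppp3 beside the summed CPM of the neuronal, young-neuron and ependymal markers in the 16 libraries, colours marking groups and symbols replicate numbers (both axes of the Tppp3 panel are log axes). The KO libraries of replicates 1, 3 and 4 sit at the low end of the Tppp3 panel, with ependymal sums of 55.2 to 79.5 CPM, and the libraries labelled KO replicate 2 lie among the WT libraries.

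Many members varied together over the 16 libraries, which come from 8 numbered pairs of Veh and Li libraries and are not independent. Replicate effects were removed and differences between groups kept, so the correlations include the differences between genotypes given above. Pearson correlations of log2 CPM among Map1a, Map1b, Map2 and Tppp were 0.728 to 0.914, and among Map4, Map6, Mapt and Stmn2 they were 0.778 to 0.926. Pairs across these sets were as high as 0.811 (Map1a with Map6) and 0.76 (Map1b with Mapt). Dcx was closest to Mapt (0.847). Tppp3 was negatively correlated with every other member (-0.934 to -0.549). Among all tested genes the most similar to Tppp were Rap1gap2 (0.982), Ogfrl1 (0.981) and Ust (0.98), and to Map2 they were Cers6 (0.987), Nbea (0.98) and Pcdhac2 (0.978). Stmn2 was most similar to the growth cone gene Gap43 (0.989), Tubb3 (0.979) and Fscn1 (0.979), Mapt to Agap3 (0.986), Mcf2l (0.981) and Mturn (0.977), and Dcx to Tmc7 (0.947), Gatm (0.941) and Mapre1 (0.938). Map1a was most similar to Shisa6 (0.972), Dync1li2 (0.97) and Cpeb2 (0.961), and Map1b to the axon guidance receptor genes Epha6 (0.968) and Unc5c (0.966) and to Dnm3 (0.965). For Map4 these were Mark4 (0.951), a kinase that phosphorylates MAPs, Zscan18 (0.951) and Fbxl19 (0.946), for Map6 Grik1 (0.976), Nxph1 (0.97) and Epha5 (0.966), and for Tppp3 Gm19935 (0.993), Acadm (0.991) and Tm4sf1 (0.99). These values were ranked from all tested genes and are given without a test.

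The further question was whether Li changed the members in either genotype. No member was called between KOLi and KOVeh or between WTLi and WTVeh, and no gene of the 14783 was called in edgeR (0% in each). At an unadjusted p below 0.05 there were 226 and 216 genes, and no member was among them. The tools limma-voom and DESeq2 also called 0 genes. The largest fitted log2 fold changes were those of Tppp3, 0.28 (SE 0.376) for KOLi against KOVeh and 0.26 (SE 0.358) for WTLi against WTVeh. Those of Tppp were 0.03 (SE 0.0492) and -0.08 (SE 0.0493), and those of Map2 -0.04 (SE 0.0731) and 0.04 (SE 0.0732). Groups separated completely for 0.46% of all tested genes between KOLi and KOVeh and for 0.541% between WTLi and WTVeh, and for no member.

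Small differences within replicate numbers had the same sign throughout for some members. Among all tested genes, all 4 pairs had a single sign for 16.7% between WTLi and WTVeh and for 16.1% between KOLi and KOVeh. WTLi was below WTVeh in 4 of 4 pairs for Mapt (-0.106 ± 0.022), Tppp (-0.0826 ± 0.0475), Map4 (-0.0721 ± 0.026) and Stmn2 (-0.158 ± 0.108, log2, SD, n = 4 pairs). KOLi was above KOVeh in 4 of 4 pairs for Stmn2 (0.0543 ± 0.0347), Dcx (0.111 ± 0.0787) and Tppp3 (0.278 ± 0.358), and below it in 4 of 4 pairs for Map4 (-0.0323 ± 0.0284). With the Veh and Li libraries of a number kept together as a fixed culture term, a fit chosen after seeing the data, the unadjusted p was 0.00404 for Stmn2 and 0.0275 for Mapt in WT cultures, and the edgeR adjusted p was 0.445 and 0.493. The difference between the Li effects of the genotypes, in the fit with group and replicate number, was called for no member and no gene (0% in edgeR, with 107 genes at an unadjusted p below 0.05, none of them members). With the culture term 1 gene that is no member was called, and 419 had an unadjusted p below 0.05, Stmn2 among them (0.00575, adjusted p 0.999). In the first of these fits the difference was 0.12 (SE 0.0696) for Tppp and 0.22 (SE 0.328) for Stmn2.

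Of 109 other genes of microtubule regulation in 9 lists, 106 were tested. Between KOVeh and WTVeh, 2 were called higher and 10 lower (11.3%), and between KOLi and WTLi 10 were called higher and 12 lower (20.8%). The 12 genes called under vehicle were all among the 22 called under Li. The median log2 fold change of the lists was 0.0971 and 0.125, against -0.00731 and -0.0044 over all tested genes. Without the spindle MAPs, 4 of 96 (4.17%) and 14 of 96 (14.6%) were called, beside 5.37% and 6.26% of all tested genes.

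Most of the genes called lower bind the mitotic spindle. Of 10 spindle MAPs, 8 were called lower in each comparison of genotypes and none higher, where 3.33% and 3.51% of all tested genes were called lower. All 10 had an unadjusted edgeR p below 0.05 in each comparison, none of them higher in KO. Under vehicle, Ckap2 fell by 1.18 on the log2 scale (SE 0.111, edgeR adjusted p = 0.000879), and the midzone bundler Prc1 fell by 0.746 (SE 0.106). Racgap1 of the central spindle fell by 0.694 (SE 0.0904). Markers of dividing cells fell with them, 7 of 8 called lower in each comparison. Their summed levels were 45.9 to 86.8 CPM in KOVeh, against 95.7 to 175 CPM in WTVeh. Nde1, a dynein regulator in the list of doublecortin kinases and partners, fell by 0.522 (SE 0.108), and no other of the 6 genes of that list was called.

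Among structural MAPs outside the members, Map7d2 was called higher under vehicle (0.31, SE 0.0543) and under Li (0.32, SE 0.0546), of 15 tested. Map6d1 was called higher under Li (0.48, SE 0.0656), and under vehicle it had 0.28 (SE 0.0648, adjusted p = 0.0131). The polyglutamylase Ttll7 was called higher in both comparisons (0.45, SE 0.0598, and 0.41, SE 0.06), as 1 of 17 tubulin-modifying enzymes under vehicle. Under Li, Agtpbp1, which removes glutamates from tubulin, was also called higher (0.30, SE 0.0608), and the deacetylase Sirt2 fell by 0.388 (SE 0.0807). The severing enzyme Katna1 fell in both comparisons, by 0.415 (SE 0.0762) under vehicle and 0.485 (SE 0.0773) under Li, and Fignl1 fell by 0.892 (SE 0.176) under Li, of 7 tested.

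Kinases and phosphatases that act on MAPs had a median log2 fold change of 0.21 under vehicle and 0.22 under Li. Of the 24 tested, 0 were called between KOVeh and WTVeh by edgeR, while 16 had an unadjusted p below 0.05, all higher in KOVeh, a level that 34.1% of all tested genes reached under vehicle and 36.4% under Li. Between KOLi and WTLi 6 were called, all higher: Cdk5r1 and Cdk5r2, the activators of CDK5, Camk2a, Mapk8, Ppp2r2c and the calcineurin subunit Ppp3ca, with log2 fold changes of 0.287 to 0.42. Of 19 plus-end proteins none was called in either comparison, with 5 and 7 at an unadjusted p below 0.05, close to or below those shares of all genes. Neither the 3 other stathmins (0 and 2 at an unadjusted p below 0.05) nor the 5 collapsin response mediators (0 and 0) held a called gene. In the Li comparisons 0 of 106 genes were called in edgeR. At an unadjusted p below 0.05 there were 2 between KOLi and KOVeh and 7 between WTLi and WTVeh, beside 1.53% and 1.46% of all tested genes. Of the 7, 4 were spindle MAPs, all higher in WTLi.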

How the data were processed

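Bulk RNA of 16 hippocampal cultures was sequenced from NEBNext Ultra libraries. The authors deposited counts per gene, made with HISAT2 2.0.5 and featureCounts 1.5.0-p3 on GRCm38.p6 according to their processing notes, in 2 tables, 1 per sequencing batch, joined here by gene identifier. Whether counting used strand was not stated in the sources at hand. Without strand, reads of overlapping genes cannot be told apart. Libraries were grouped by genotype and treatment in their labels.

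The 33134 genes of the biotypes used in the study were filtered with filterByExpr (minimum count 15, minimum proportion 0.25), leaving 14783, which included all 10 members. TMM factors (0.965 to 1.03) and edgeR's quasi-likelihood test (edgeR 4.0.16, R 4.3.3, robust) were used with group and replicate number as terms over all 16 libraries. A call needed a Benjamini-Hochberg adjusted p below 0.01 with a fold above 1.2. SE is the log2 fold change over the root of F. Log2 CPM used a prior count of 2. CPM per kb divides by the deposited gene length. Alternatives were limma 3.58.1, DESeq2 1.42.0, other scaling, filters, thresholds and blocks, and left-out libraries. The test was tried on simulated counts with a replicate effect shared by all groups. These held no effect of culture, so they could not check a fit without a culture term.

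The replicate number was used as a block as in the study's methods. Same-numbered libraries deviated together in every pair of each comparison (correlation of deviations from the group means 0.161 to 0.889). No 2 libraries agreed within counting noise. The members, the 9 lists of other microtubule genes and the cell type marker lists were chosen with earlier results of these data known. All members are named, as are up to 3 called genes of each microtubule list with the smallest p under vehicle, the most abundant markers of lists used, and the 3 genes most similar to each member. The further called genes of the enzyme and kinase lists (Sirt2, Mapk8, Ppp2r2c and others) were named after their values were seen.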

Additional observations from a re-analysis of the deposited data

Results flagged for a closer look

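Within single groups, 3 of the 40 sets of 4 libraries tested held a library far from the other 3, by its gap relative to the range of the group (chance gives about 1 in 20). Dcx was at 264 CPM in KOVeh replicate 4, against 131 to 135 CPM in the other KOVeh libraries, and at 224 CPM in WTVeh replicate 3, against 114 to 126 CPM in the other WTVeh libraries. Tppp3 was at 46.7 CPM in the library labelled KOVeh replicate 2, against 9.31 to 11.9 CPM in the other KOVeh libraries. Shank3 was at 162 CPM in that same library.

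Stmn2 stood out because KOLi was above KOVeh in 4 of 4 pairs whereas WTLi was below WTVeh in 4 of 4 pairs. The fitted difference between these Li effects was 0.218 on the log2 scale (SE 0.328, edgeR adjusted p = 1). With culture as a fixed term, added after seeing the data, the unadjusted p was 0.00575 and the edgeR adjusted p 0.999.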

How the results depend on the processing

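Of 1250 member values recomputed under 32 settings, 1213 kept their side of the threshold, 24 lost a call, 13 gained one and none that was called changed sign. With no replicate block, 0 of all 14783 genes were called in either comparison of genotypes, and so 0 members and 0 other microtubule genes, against 2 and 12 under vehicle and 1 and 22 under Li with the block, while the log2 fold changes of Tppp were 0.406 (edgeR adjusted p = 0.398) under vehicle and 0.532 (0.258) under Li. Fitting the compared groups alone also called 0 of all genes. Under vehicle Tppp was then at 0.432 (SE 0.0726, edgeR adjusted p = 0.0641) and Map2 at 0.375 (SE 0.0741, edgeR adjusted p = 0.0644). Under Li Tppp was at 0.538 (SE 0.0579, edgeR adjusted p = 0.0403). In sequencing batch 1 alone, 0 members and 2 other microtubule genes were called under vehicle and 1 member (Tppp) and 1 other microtubule gene under Li, of 19 and 10 genes called in all, and batch 2 held 1 library per group. The limma-voom fit with culture as a random effect called 1 member (Tppp, not Map2) and 7 other microtubule genes under vehicle. DESeq2, which called 12.8% and 13.8% of all genes, called 29 other microtubule genes under vehicle and 3 members under Li. At an adjusted p below 0.05 with no minimum fold (19.1% and 21.5% of all genes), 39 other microtubule genes were called under vehicle, and 40 with 3 members under Li. Leaving out libraries or replicate numbers gave 0 to 4 members in each comparison, and 0 to 19 other microtubule genes under vehicle and 0 to 24 under Li. The exact permutation test with the replicate block exchanged labels within pairs and cannot go below 0.125. The planned form permuted centred levels across pairs, which is not exact, and its values were dropped. That test, the culture block and the neuronal-marker scaling were chosen after seeing the data. Depth did not keep any member from being tested, and 4 cultures per genotype limit the precision.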
